A study of Rattus norvegicus with 11 samples.

Results

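The complement genes described here are C1qa, C1qb, C1qc, C3, C3ar1, C5ar1, Cfb, Serping1 and C2, chosen by gene symbol, of which 7 of the 9 matched a row in a table of 30560 genes. C5ar1 and C2 matched no row and were not analysed here. The samples were 11 adult male Sprague-Dawley rats, and poly(A) RNA of each rat's striatum at day 3 gave 1 library. In the hemorrhage rats this was the ipsilateral striatum. Intracerebral hemorrhage was induced with collagenase VII-S, an enzyme that opens the vessel wall, injected into the right striatum. The 3 IC rats (common hemorrhage) received 0.2 U in 1.0 μL and the 3 IS rats (severe hemorrhage) received 0.6 U in 3.0 μL. The 3 IS-HA rats received the IS dose and had 150 μL, about 75% of the hematoma, aspirated at 6 h. The 2 Normal rats received neither, so the effect of the needle and of the injected volume cannot be told apart from that of the bleeding in any comparison with Normal.

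Complement is a cascade of blood and tissue proteins that tags material for removal. In the classical pathway C1q, built from the products of C1qa, C1qb and C1qc, binds a surface, the proteases of the C1 complex cut C4 and C2, and the resulting enzyme cuts C3. Cfb supplies the protease of the alternative pathway, which amplifies that cut, Serping1 encodes the inhibitor of the C1 proteases, and C3ar1 and C5ar1 are receptors for the fragments released from C3 and C5. In the brain C1q is made chiefly by microglia and macrophages, and C3 is a gene of reactive astrocytes as well as of myeloid cells.

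Promoter sequences are shown as the regulatory sequence at the start of these genes. RefSeq promoter windows on build GRCr8, from 250 bases before to 50 after the gene start, were held for 4 of the 9 genes, namely C1qa, C1qb, C3 and C3ar1. All 4 lie on the minus strand and are printed in the direction of transcription, and capitals mark matches on either strand to GGAAGT (the ETS core that PU.1 binds), TTGCNNAA (C/EBP), AANNGAAA (IRF) or TGANTCA (AP-1). The windows are chr5:154419884-154420183 for C1qa, chr5:154407778-154408077 for C1qb, chr9:2201290-2201589 for C3 and chr4:157756481-157756780 for C3ar1.
C1qa: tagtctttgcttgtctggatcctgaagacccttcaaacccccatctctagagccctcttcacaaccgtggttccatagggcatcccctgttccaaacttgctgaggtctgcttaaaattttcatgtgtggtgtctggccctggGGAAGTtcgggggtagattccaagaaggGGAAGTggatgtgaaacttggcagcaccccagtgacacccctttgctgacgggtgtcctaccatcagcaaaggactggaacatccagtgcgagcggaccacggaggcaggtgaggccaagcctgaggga
C1qb: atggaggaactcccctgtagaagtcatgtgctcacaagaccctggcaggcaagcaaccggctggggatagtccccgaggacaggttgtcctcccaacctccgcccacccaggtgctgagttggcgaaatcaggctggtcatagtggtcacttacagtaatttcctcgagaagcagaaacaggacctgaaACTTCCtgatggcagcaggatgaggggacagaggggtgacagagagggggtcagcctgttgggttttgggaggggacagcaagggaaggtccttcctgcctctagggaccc
C3: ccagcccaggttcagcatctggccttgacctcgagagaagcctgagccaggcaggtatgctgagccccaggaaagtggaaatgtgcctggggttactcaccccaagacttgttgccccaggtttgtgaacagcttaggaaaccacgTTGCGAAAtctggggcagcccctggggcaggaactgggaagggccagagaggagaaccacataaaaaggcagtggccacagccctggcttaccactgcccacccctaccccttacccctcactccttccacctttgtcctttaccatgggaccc
C3ar1: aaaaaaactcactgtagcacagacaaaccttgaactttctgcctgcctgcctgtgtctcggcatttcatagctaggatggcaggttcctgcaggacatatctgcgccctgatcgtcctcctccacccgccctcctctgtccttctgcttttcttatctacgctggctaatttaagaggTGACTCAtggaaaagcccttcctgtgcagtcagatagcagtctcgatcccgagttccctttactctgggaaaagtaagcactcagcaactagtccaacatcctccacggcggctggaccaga
The C1qa window held GGAAGT at 2 places, starting at bases 144 and 172 of the window, and the C1qb window held it once, on the other strand at base 190. GGAAGT was found in 22.6% of the 33469 RefSeq promoters of this length. The C3 window held no GGAAGT and 1 C/EBP match, at base 147, a motif present in 10.6% of promoters. The C3ar1 window held 1 AP-1 match, at base 179, which 7.3% of promoters have. No window held the IRF letters, which 26.4% of promoters hold, and no matches overlapped. In RefSeq the 3 C1q genes follow each other on chromosome 5 in the order C1qb, C1qc, C1qa with no other protein-coding gene between them, and Cfb lies next to C2 on chromosome 20.

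Counts assigned to genes ranged from 6701301 (IS-HA replicate 2) to 18817645 (IC replicate 3), and a floor of 3 counts corresponded to 0.151 to 0.473 CPM (counts scaled to the TMM-normalized library size), a limit that covers counting error only. Hemoglobin and mitochondrial genes took 7.76% to 15.5% of counts. Of the 12 striatal neuron markers all were detected in the tested set, with a summed level of 8263 to 8500 TPM (a share of all transcripts, corrected for gene length) in Normal and 1594 to 6544 TPM in the hemorrhage groups. All 7 complement genes passed the filter on low counts and were among the 15742 genes tested by the quasi-likelihood method of edgeR. Log2 fold changes are given with their standard error (SE), adjusted p is by Benjamini-Hochberg over all genes tested, and a gene past the threshold had an adjusted p under 0.05 and a log2 fold change of at least 1 either way. Nothing in the labels names litters or batches, and the p-values measure the spread between these rats.

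All 7 complement genes were higher in each hemorrhage group than in Normal. The 7 of 7 past the threshold in IC stand beside 10.9% of all genes called higher and 2.66% called lower, the 7 of 7 in IS beside 18.8% higher and 17% lower, and the 7 of 7 in IS-HA beside 15.1% higher and 7.71% lower. Every rat with hemorrhage lay above both Normal rats for every one of the 7 genes. Group by group on the log2 CPM scale, that held for 5093 of the 15742 genes in IC, 5912 in IS and 4991 in IS-HA. The median log2 fold change of the 7 genes was 3.22 in IC, 3.71 in IS and 3.49 in IS-HA, against medians over all genes tested of 0.00, 0.02 and 0.06.

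The 3 C1q genes had the highest levels of the 7 in every hemorrhage group. C1qb, the B chain, stood at 86.8 and 49.8 TPM in the Normal rats, at 633, 770 and 924 TPM in IC, at 1321, 1500 and 1159 TPM in IS, and at 926, 1667 and 1019 TPM in IS-HA. The IS rats all lay above the IC rats, and the IS-HA rats reached from just above the IC rats to replicate 2, the highest of the 11, while on the CPM scale used below IS-HA overlapped with IC. Against Normal, C1qb was 10.9-fold higher in IC (log2 fold change 3.44, SE 0.45, edgeR adjusted p = 6.04e-04), 19.4-fold in IS (4.28, SE 0.47, adjusted p = 9.95e-05) and 18.0-fold in IS-HA (4.17, SE 0.47, adjusted p = 1.98e-04).

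C1qa, the A chain, stood at 71.9 and 38.9 TPM in Normal, 358, 410 and 518 TPM in IC, 679, 750 and 745 TPM in IS, and 473, 842 and 520 TPM in IS-HA. The same order held, with every IS rat above every IC rat and IS-HA replicate 2 above the other 10. The log2 fold change against Normal was 2.89 (SE 0.45, edgeR adjusted p = 0.00141) in IC, 3.71 (SE 0.47, adjusted p = 1.96e-04) in IS and 3.49 (SE 0.46, adjusted p = 4.50e-04) in IS-HA.

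C1qc, the C chain, stood at 40.2 and 25.2 TPM in Normal, 239, 373 and 340 TPM in IC, 543, 545 and 490 TPM in IS, and 385, 565 and 438 TPM in IS-HA. In TPM neither IS nor IS-HA overlapped with IC, and IS-HA replicates 1 and 3 lay between the IC and IS rats. On the CPM scale used below IS-HA overlapped with IC and IS did not. Its log2 fold change against Normal was 3.21 (SE 0.37) in IC, 4.01 (SE 0.38) in IS and 3.83 (SE 0.38) in IS-HA, with edgeR adjusted p of 2.91e-04, 4.91e-05 and 1.06e-04.

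The 3 chains kept the same order of abundance in all 11 rats, C1qb above C1qa above C1qc. Of the summed C1q TPM, C1qa took 34.2% to 36.1% in Normal and 26.3% to 31.1% in the 9 hemorrhage rats, C1qb took 43.7% in both Normal rats and 48.4% to 54.2% with hemorrhage, and C1qc took 18.4% to 24.0% over all 11 rats. The C1qa share was higher and the C1qb share lower in the Normal rats than in any hemorrhage rat, a description without a test. Over the 9 hemorrhage rats, which share the 3 groups, log2 CPM of C1qa correlated with that of C1qb at r = 0.98 and with C1qc at r = 0.94, and C1qb with C1qc at r = 0.96.

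C3, the central component cut by both pathways, had its highest level in IC. It stood at 6.06 and 5.74 TPM in Normal, 38.1, 33.4 and 30.1 TPM in IC, 10, 17.0 and 16.9 TPM in IS, and 21.5, 19.2 and 15.4 TPM in IS-HA. IC was the highest group with no overlap with IS or IS-HA, while the IS and IS-HA ranges met. Against Normal C3 was 5.50-fold higher in IC (log2 fold change 2.46, SE 0.31, edgeR adjusted p = 4.78e-04), 2.53-fold in IS (1.34, SE 0.30, adjusted p = 0.00422) and 3.16-fold in IS-HA (1.66, SE 0.30, adjusted p = 0.0026).

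Cfb, the serine protease of the alternative pathway convertase, stood at 8.71 and 6.21 TPM in Normal, 56.4, 93.5 and 68.8 TPM in IC, 77.2, 61.4 and 111 TPM in IS, and 59.3, 78.2 and 53.3 TPM in IS-HA. The 3 hemorrhage groups overlapped throughout. Its log2 fold change against Normal was 3.22 (SE 0.41, edgeR adjusted p = 5.39e-04) in IC, 3.50 (SE 0.42, adjusted p = 1.52e-04) in IS and 3.11 (SE 0.41, adjusted p = 4.53e-04) in IS-HA.

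Serping1, the inhibitor of C1r and C1s, stood at 12.8 and 14.8 TPM in Normal, 181, 187 and 206 TPM in IC, 165, 144 and 104 TPM in IS, and 150, 138 and 134 TPM in IS-HA. IC was the highest group and overlapped with neither IS nor IS-HA. The log2 fold change against Normal was 3.75 (SE 0.24, edgeR adjusted p = 4.48e-05) in IC, 3.33 (SE 0.23, adjusted p = 3.13e-05) in IS and 3.35 (SE 0.23, adjusted p = 6.44e-05) in IS-HA.

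C3ar1, the receptor for the C3a fragment, was the lowest of the 7 genes in Normal, at 2.23 and 1.51 TPM. It stood at 19.1, 26.6 and 20.4 TPM in IC, 29.0, 28.4 and 41.9 TPM in IS, and 27.3, 20.8 and 32.1 TPM in IS-HA. Every IS rat lay above every IC rat. The log2 fold change against Normal was 3.48 (SE 0.31, edgeR adjusted p = 1.15e-04) in IC, 4.16 (SE 0.32, adjusted p = 3.13e-05) in IS and 3.79 (SE 0.32, adjusted p = 6.44e-05) in IS-HA.

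**Figure D1:**
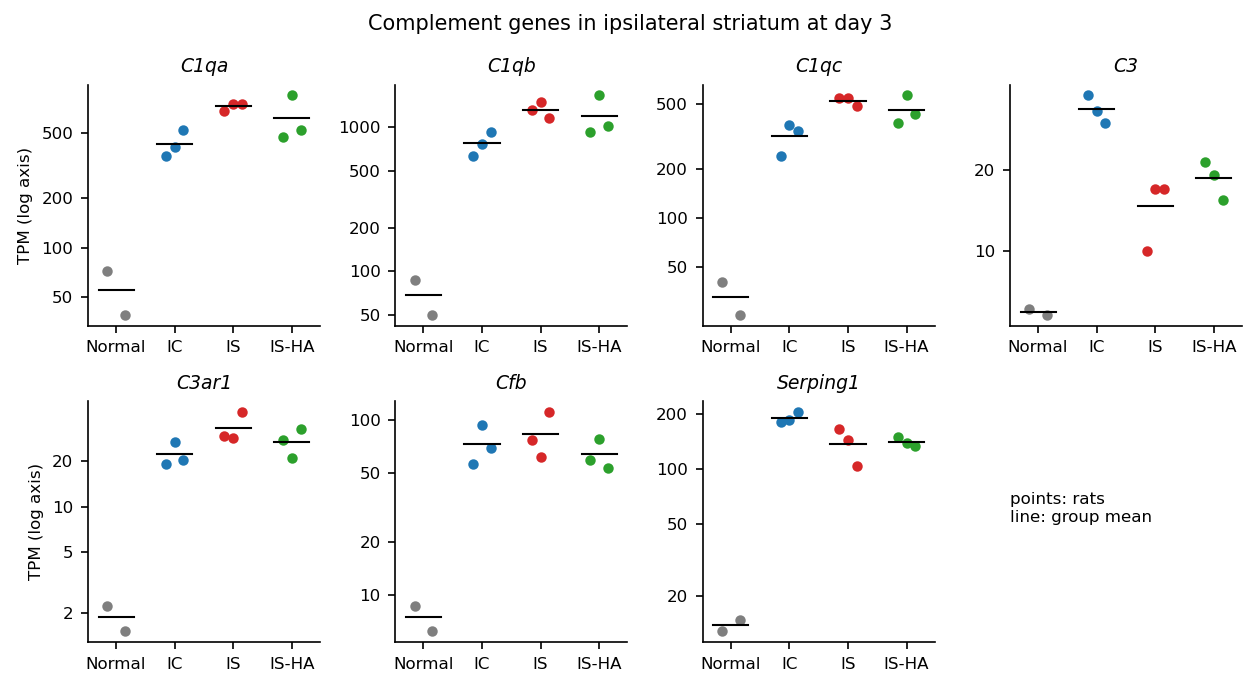
TPM (log axis) of the 7 complement genes in each rat, by group, with points for rats and a line for the group mean. The Normal rats lie below all 9 hemorrhage rats in every panel, and C3 and Serping1 are highest in IC while the C1q genes and C3ar1 are higher in IS than in IC.

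General myeloid markers and those listed for infiltrating cells were higher with hemorrhage beside these genes, and homeostatic microglia markers less uniformly so. For the counts below, 10.9% of all genes were called higher in IC, 18.8% in IS and 15.1% in IS-HA. All 12 microglia and macrophage genes of the list were past the threshold against Normal in IC, IS and IS-HA, with a summed level of 187 to 230 TPM in Normal, 1604 to 2496 TPM in IC, 2803 to 5003 TPM in IS and 2020 to 3591 TPM in IS-HA, and none of the 12 was at 0 in any group. The 8 genes listed for infiltrating monocytes and macrophages were Ccr2, Ms4a7, Cd163, Mrc1, Arg1, Lyz2, Ly6c and Plac8. They were also past the threshold in all 3 comparisons, at 35.8 to 43.0 TPM summed in Normal, 523 to 1273 TPM in IC, 1227 to 3908 TPM in IS and 788 to 1303 TPM in IS-HA. The paper uses Arg1 and CD163 as markers within microglia, so this list does not separate infiltrating cells from microglia. Of the 8 homeostatic microglia markers, 5 were past the threshold as higher in IC, 4 in IS and 5 in IS-HA, with summed levels of 160 to 186 TPM in Normal, 369 to 461 TPM in IC, 323 to 350 TPM in IS and 332 to 460 TPM in IS-HA. In IS against IC their median log2 fold change was -0.59, with 5 of 8 below 0 and none past the threshold, where that of the 12 microglia and macrophage genes was 0.74. The 7 neutrophil markers tested were likewise past the threshold in all 3, at 5.33 to 5.35 TPM summed over the list in Normal and 92.4 to 878 TPM in the hemorrhage groups. The 6 hepatocyte markers, of the organ that makes most plasma complement, summed to 5.06 TPM or less in every rat. The 8 astrocyte markers summed to 3126 to 3197 TPM in Normal and 6225 to 8701 TPM in IC. Their sums were 3577 to 6403 TPM in IS and 4897 to 6508 TPM in IS-HA. These sums did not reflect the list gene by gene. In each hemorrhage group only Gfap passed the threshold as higher than Normal, and only Slc1a2 as lower. Below Normal lay 2 of the 8 in IC, 6 in IS and 3 in IS-HA (medians 0.26, -0.44 and 0.14 on the log2 scale). From IC to IS all 8 were lower (median -0.50), with none past the threshold. In these bulk libraries more cells of a type and more RNA per cell cannot be told apart, and the part of cell numbers in the changes was not tested.

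The dose comparison, IS against IC, sets the larger hemorrhage beside the smaller one. These groups also differed in enzyme dose and injected volume, whose effects cannot be told apart from that of hemorrhage size. None of the 7 complement genes was past the threshold, where 0% of all genes were called by edgeR, 4 of the 7 had an unadjusted p under 0.05 as higher and 2 as lower (10.5% and 11.7% of all genes), and DESeq2's Wald test called 1, C3, among 613 genes it called in all. On the log2 CPM scale every IS rat lay above every IC rat for 4 genes, the 3 C1q genes and C3ar1, where 19.2% of all genes had that pattern, and below for 2, C3 and Serping1, where 18.7% had it. C3 had a log2 fold change of -1.12 (SE 0.25, edgeR adjusted p = 0.143), that is 2.17-fold lower in IS. DESeq2's Wald test gave -1.11 (adjusted p = 0.0076), and the edgeR fit without IS-HA replicate 2, the smallest library, gave -1.12 (adjusted p = 0.0248), so the C3 call depended on the tool and on 1 library that is in neither of the groups compared.

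The C1q genes had log2 fold changes of 0.82 (C1qa, SE 0.35), 0.83 (C1qb, SE 0.35) and 0.80 (C1qc, SE 0.29) in IS against IC, with edgeR adjusted p of 0.212, 0.204 and 0.173. C3ar1 stood at 0.67 (SE 0.23, adjusted p = 0.168), Serping1 at -0.42 (SE 0.18, adjusted p = 0.206) and Cfb at 0.28 (SE 0.32, adjusted p = 0.589). For Cfb, 2 SE either side ran from -0.36 to 0.92, which takes in changes either way.

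The aspiration comparison, IS-HA against IS, sets aspirated rats beside rats given the same dose without aspiration. By the paper's methods the IS-HA rats were also anesthetized again and had a catheter passed through the hematoma. No group had that procedure without aspiration, so its effect cannot be told apart from that of clot removal. None of the 7 complement genes was past the threshold, where 0.00635% of all genes were called by edgeR, 0 of the 7 had an unadjusted p under 0.05 (5.58% of all genes as higher and 3.36% as lower), and DESeq2 called 0 of the 7 and 62 genes in all. The IS-HA and IS rats overlapped for all 7 genes, while 4.96% of all genes were higher and 5.42% lower in every IS-HA rat. The differences were -0.22 for C1qa, -0.11 for C1qb, -0.17 for C1qc, 0.32 for C3, -0.36 for C3ar1, -0.39 for Cfb and 0.02 for Serping1 on the log2 scale, with edgeR adjusted p between 0.622 and 0.982. The spans of 2 SE either side reached from -0.92 to 0.49 for C1qa, from -0.18 to 0.83 for C3, from -0.83 to 0.10 for C3ar1 and from -0.33 to 0.38 for Serping1. In the main fit, a log2 difference of 1 either way lay outside the span of every one of the 7 genes except Cfb. The Cfb span ran from -1.03 to 0.25. Over the alternative settings the difference itself ran from -0.70 to -0.01 for C1qa and from -0.60 to 0.11 for C1qb. It ran from -0.51 to 0.00 for C1qc and from -0.73 to -0.01 for Cfb. Spans are given for the main fit only, so they do not exclude a difference of 1 under the other settings.

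IS-HA against IC sets the aspirated severe hemorrhage beside the smaller one. Again 0 of the 7 genes passed the threshold and 0% of all genes did under edgeR, with an unadjusted p under 0.05 as lower for 2 of the 7 and as higher for none (2.38% and 2.59% of all genes), and DESeq2 called 0 of the 7 among 17 genes. On the log2 CPM scale C3ar1 was higher in every IS-HA rat than in every IC rat, which did not hold in TPM, as 4.66% of all genes were, and C3 and Serping1 were lower in every IS-HA rat, as 4.36% were. C3 differed by -0.80 (SE 0.25, edgeR adjusted p = 0.841) and Serping1 by -0.40 (SE 0.18, adjusted p = 0.841). The IS and IS-HA comparisons with IC share the IC rats, and their values are given side by side only.

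**Figure D2:**
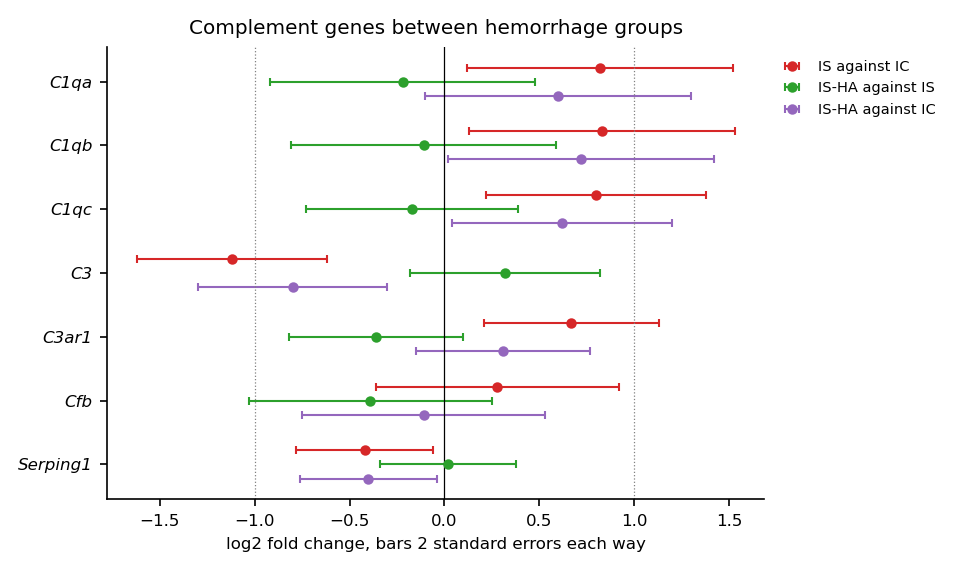
Log2 fold change of the 7 complement genes in the 3 comparisons between hemorrhage groups, with bars of 2 standard errors each way and dotted lines at a log2 fold change of 1 either way. C3 lies furthest from 0, at -1.12 in IS against IC, and all 7 bars for IS-HA against IS cross 0.

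The ratio of C1q to C3, formed after their levels were seen, restates the values above within each rat and was not tested. The mean TPM of the 3 C1q genes divided by the C3 TPM was 10.9 and 6.61 in Normal, 10.8, 15.5 and 19.7 in IC, 84.7, 54.8 and 47.1 in IS, and 27.7, 53.3 and 42.8 in IS-HA. Every IS rat had a ratio above every IC rat, and IS-HA lay above IC and overlapped with IS. Over the 9 hemorrhage rats C3 correlated with C1qa at -0.41, with C1qb at -0.47 and with C1qc at -0.58, but the deviations from the group means correlated at 0.45, 0.34 and 0.22. No test was made of these correlations.

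**Figure D3:**
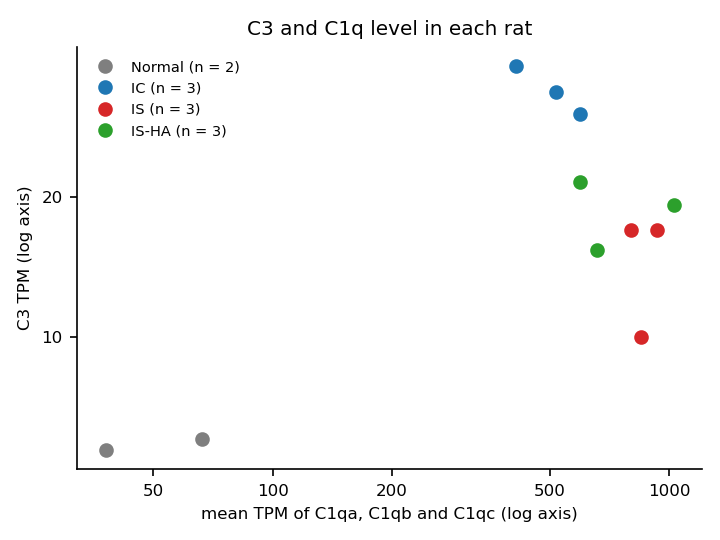
C3 TPM against the mean TPM of C1qa, C1qb and C1qc in each rat, both on log axes, coloured by group. The IC rats lie at the top with 30.1 to 38.1 TPM of C3 and the IS rats lie to the lower right with 10 to 17.0 TPM.

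Relative to myeloid markers, C1qa overlapped between all groups, while the place of several other genes depended in part on the reference. The log2 CPM of each gene was set against the mean log2 CPM of the 12 microglia and macrophage genes in the same rat. C3 lay at 0.28 ± 0.14 (SD, n = 2) in Normal, -0.65 ± 0.44 (n = 3) in IC, -2.52 ± 0.43 (n = 3) in IS and -1.73 ± 0.31 (n = 3) in IS-HA, and the ranges of the 4 groups did not overlap, a description without a test. C1qa lay at 2.02 ± 0.43 in Normal, 1.58 ± 0.33 in IC, 1.72 ± 0.36 in IS and 1.84 ± 0.28 in IS-HA, with overlapping ranges. C1qb ran from 1.22 to 1.75 in Normal and from 1.78 to 2.30 in IS-HA, without overlap. C1qc ran from 0.78 to 0.96 in IC and from 1.07 to 1.29 in IS-HA, also without overlap. For both genes every other pair of groups overlapped. C3ar1 lay between -1.58 and -1.45 in the group means, with overlapping ranges. Cfb lay at 0.42 ± 0.07 in IC and -0.03 ± 0.15 in IS, and Serping1 at 0.34 ± 0.31 and -0.79 ± 0.72, and neither gene's IC and IS ranges overlapped. IS-HA also lay below IC without overlap, at -0.16 to 0.15 for Cfb and -0.53 to -0.09 for Serping1. Normal lay above IS for both genes, at 0.48 to 0.70 for Cfb and -0.24 to 0.24 for Serping1, and above IS-HA for Cfb only. With Aif1, Csf1r, Itgam and Tyrobp as the reference, C3 was at -1.06 in IC and -2.72 in IS, again without overlap, but its IS and IS-HA ranges met. Under that reference C3ar1 lay at -2.44 to -2.27 in Normal, -1.93 to -1.89 in IC and -1.78 to -1.73 in IS, with no overlap among these groups. Cfb then lay at -0.11 to 0.12 in IC and -0.45 to -0.09 in IS, and those ranges met. Serping1 in IC, at -0.39 to 0.12, again lay above IS (-1.71 to -0.50) and IS-HA (-0.74 to -0.56), and now above Normal (-1.06 to -0.49). C1qb in Normal, at 0.49 to 0.93, then lay below IS (1.00 to 1.89) and IS-HA (1.31 to 2.18). C1qc in Normal, at 0.07 to 0.37, then lay below IS-HA (0.60 to 1.18). The remaining pairs of groups overlapped for these 2 genes.

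**Figure D4:**
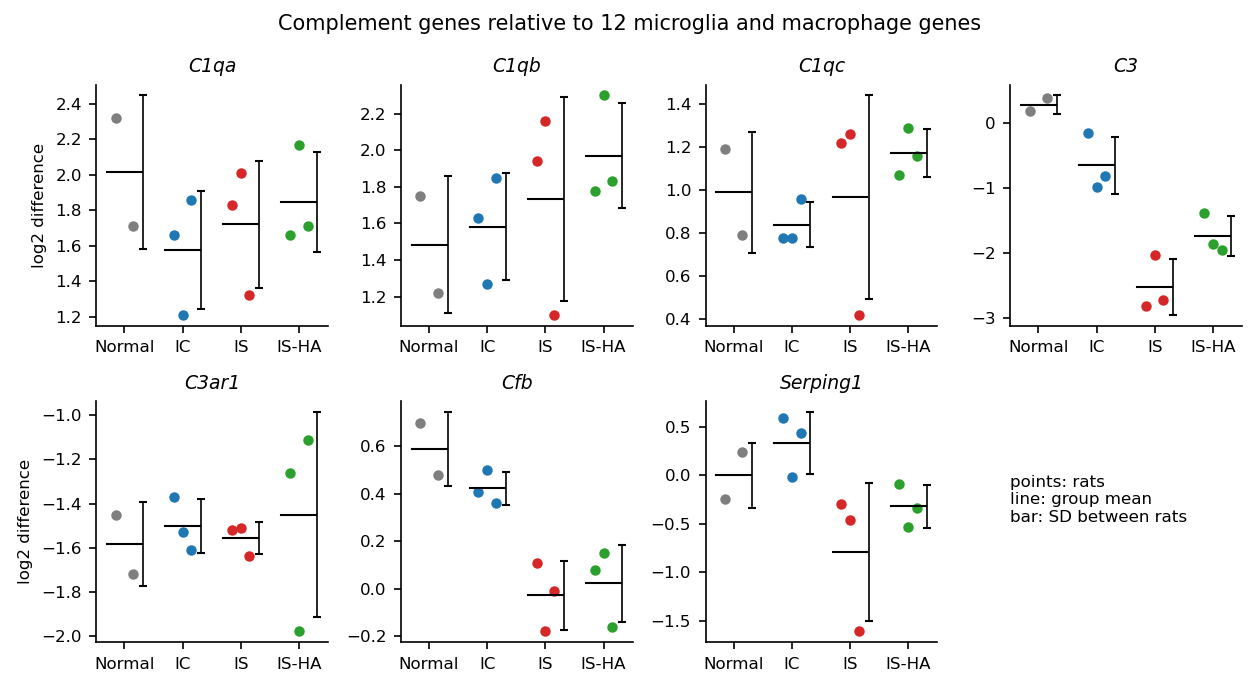
Log2 CPM of each complement gene minus the mean log2 CPM of 12 microglia and macrophage genes, per rat, with a line for the group mean and a bar for the SD between rats. C3 has a mean of 0.28 in Normal and -2.52 in IS. C1qa overlaps across all groups, while C1qb in Normal and C1qc in IC lie below IS-HA.

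The genes most like the C1q genes over the 9 hemorrhage rats, by Pearson's r of log2 CPM with the mean of the 3, were Eif6 (0.989), Sae1 (0.986), Gpat4 (0.984), Brms1 (0.982) and Slc27a4 (0.982). Eif6 encodes a ribosome biogenesis factor and Sae1 a SUMO activating enzyme subunit. Eif6 stood at a mean of 52.0 TPM in Normal, 68.2 TPM in IC and 102.6 TPM in IS. The genes most like C3 were Trpm2 (0.967), Lhx8 (0.966), Cep44 (0.936), Ercc5 (0.929) and Dzip1l (0.907). Lhx8, a transcription factor of striatal and forebrain cholinergic neurons, had a mean of 4.82 TPM in IC and 1.75 TPM in IS. These correlations over 9 rats in 3 groups are descriptions, and the rats of a group share their treatment.

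Of 60 further complement genes listed by role, 50 matched a row and 36 passed the filter on low counts, with 14 too low to test. Against Normal, 16 of the 36 were higher and 2 lower in IC, 19 higher and 5 lower in IS, and 16 higher and 3 lower in IS-HA, and the total of 18 in IC was 10 without Normal replicate 3. These counts stand beside 10.9% and 2.66%, 18.8% and 17%, and 15.1% and 7.71% of all genes. The median log2 fold change of the 36 was 0.93, 1.29 and 1.19. Between hemorrhage groups edgeR called 0 of the 36 in each comparison, with 7 higher and 3 lower at an unadjusted p under 0.05 in IS against IC (10.5% and 11.7% of all genes), 1 higher and 3 lower in IS-HA against IS (5.58% and 3.36%), and 2 lower in IS-HA against IC (2.38%), and DESeq2 called 2 in IS against IC, Csmd3 and Itgax.

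The genes that start the classical and lectin pathways were higher for 4 of 6 in IC, 5 of 6 in IS and 4 of 6 in IS-HA. Of all genes, 10.9%, 18.8% and 15.1% were called higher in these groups. C1r and C1s, the proteases that Serping1 inhibits, were past the threshold in all 3 comparisons. Fcnb, a ficolin that recognizes sugars on microbes, had 0 and 2 counts in the Normal rats, and 64, 350 and 193 counts in IC, 348, 204 and 674 in IS, and 146, 142 and 115 in IS-HA. All 4 convertase components and substrates tested, C4a, C4b, Cfd and Cfp, were higher in all 3 groups, where C4a and C4b are near-identical copies between which reads can be split, and their separate values are uncertain. Cfd, the protease that cuts factor B, rose from 4.23 and 2.1 TPM in Normal to 70.9, 43.4 and 178 TPM in IS (log2 fold change 4.97, SE 0.98, edgeR adjusted p = 0.00234). The 2 terminal pathway genes tested, C6 and C7, were both higher in all 3 groups, and C5, named after its values were seen, reached no more than 7 counts in any rat.

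The receptors were higher for 5 of 9 in IC, 7 of 9 in IS and 5 of 9 in IS-HA, beside 10.9%, 18.8% and 15.1% of all genes. Itgax, a chain of the iC3b receptor CR4, stood at 0.153 and 0.105 TPM in Normal, 4.13, 7.2 and 5.28 TPM in IC and 6.54, 12.8 and 18.2 TPM in IS, with a log2 fold change of 6.59 (SE 0.65, edgeR adjusted p = 5.78e-05) in IS against Normal. Vsig4, a macrophage receptor for C3b, had 0 counts in both Normal rats and 27, 18 and 181 counts in IS, which made IS at least 51.6-fold higher against a floor of 3 counts per Normal library, and at least 10.7-fold higher without IS replicate 4, which held most of the counts. It had 3, 45 and 0 counts in IC and 6, 2 and 8 in IS-HA.

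The inhibitors and regulators were the role with genes that fell. Of 15 tested, 2 fell in IC, 5 in IS and 3 in IS-HA, beside 2.66%, 17% and 7.71% of all genes called lower. Those that fell in IS were Csmd1, Csmd2, Csmd3, Sez6 and Sez6l2, which encode membrane proteins with sushi and CUB domains that neurons express. Csmd3 had a log2 fold change of -3.81 (SE 0.52, edgeR adjusted p = 3.11e-04) in IS against Normal, at 4.74 and 7.32 TPM in Normal, 3.16, 1.79 and 1.61 TPM in IC, 0.334, 0.430 and 0.505 TPM in IS and 1.57, 0.265 and 1.46 TPM in IS-HA. Sez6, with -2.28 (SE 0.24, adjusted p = 7.80e-05), went from 333 and 413 TPM in Normal to 76.6, 94.2 and 57.0 TPM in IS. Csmd1 had -2.42 (SE 0.56, adjusted p = 0.00518), and Sez6l, at -1.78 (SE 0.71, adjusted p = 0.0586), did not pass. The striatal neuron markers moved beside them, with 2, 11 and 9 of 12 past the threshold as lower in IC, IS and IS-HA, and their part in these falls was not tested.

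**Figure D5:**
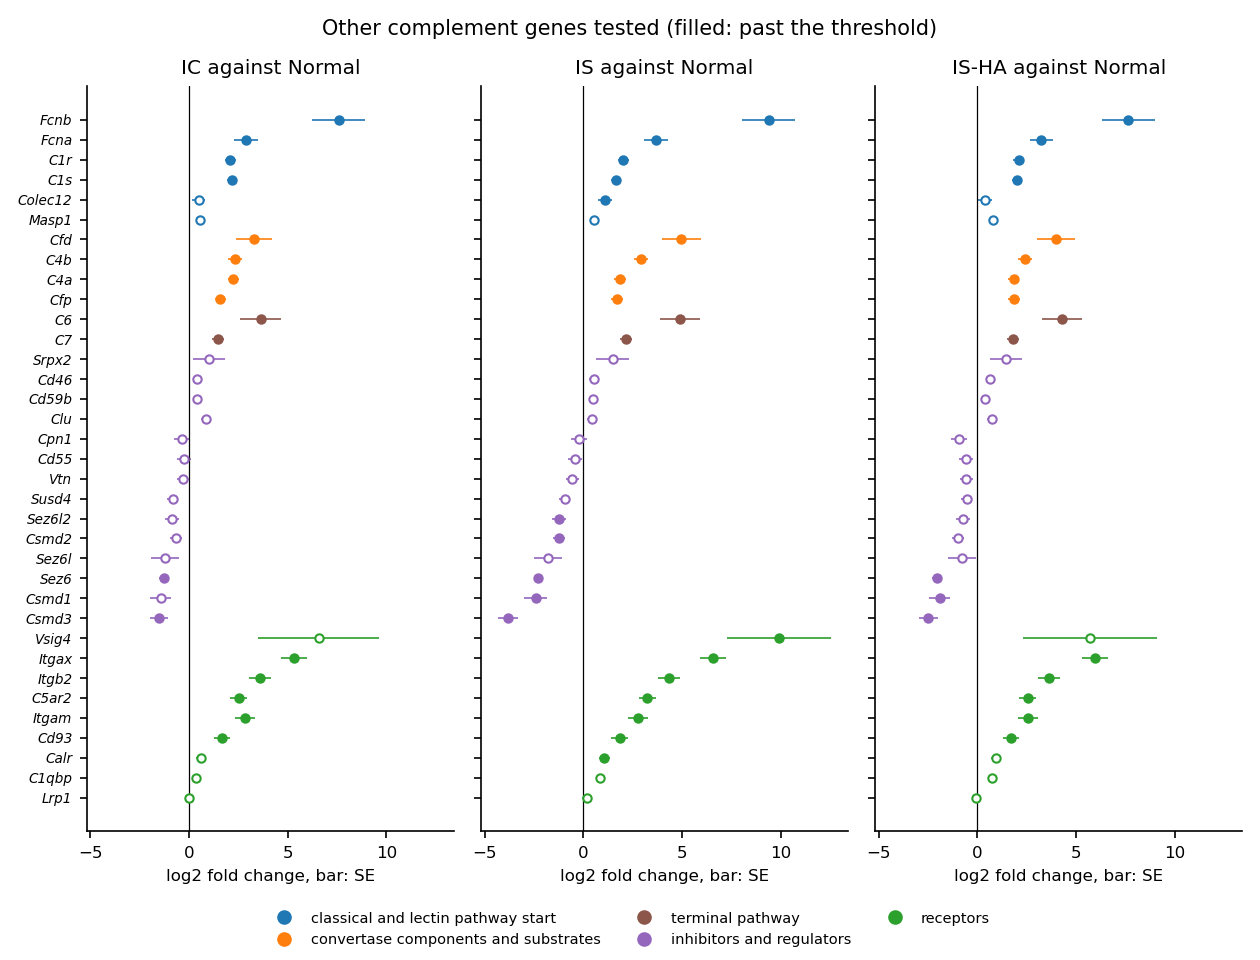
Log2 fold change against Normal of 35 of the 36 other complement genes tested, by role, for IC, IS and IS-HA, with bars of 1 SE and filled points for genes past the threshold. Most start, convertase and terminal genes lie to the right of 0 and the Csmd and Sez6 genes to the left, and the Vsig4 and Fcnb values rest on 0 to 2 Normal counts.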

How the data were processed

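The authors prepared stranded libraries from poly(A) RNA, with paired 150-base reads. The submitters' processing notes name fastp 0.20.0, FastQC 0.11.9, HISAT2 2.1.0, SAMtools 1.9, featureCounts, DESeq2 and build mRatBN7.2. The annotation version and the strand setting are not given in the sources used here. The deposited table holds raw whole-number counts per gene, and TPM that the authors computed from counts and gene length. All 11 rats were used, and 0 value columns were left unmatched.

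Here the counts were filtered with filterByExpr, normalized by TMM and tested with edgeR 4.0.16 (quasi-likelihood F test) in R 4.3.3, all 4 groups in 1 fit and Benjamini-Hochberg adjustment across 15742 genes and a common dispersion of 0.0691. The study's methods name DESeq2, used here (1.42.0) as an alternative. Each SE was derived from the log2 fold change and its F statistic. CPM was on TMM-scaled libraries, and log2 CPM had a prior count of 2. The fit was tested on simulated data first. Members and gene lists were chosen with earlier results of these data known. Named genes were all members, pathway genes by role without values, and with values those past the threshold between hemorrhage groups, the 4 highest and the 4 lowest in IS against Normal and those that fell against the majority. Alternatives were DESeq2's size factors, library size alone, normalization without 24 hemoglobin and mitochondrial genes, no filter, at least 10 counts in every rat, 2 groups alone, each rat left out, the replicate block, other call rules, and limma 3.58.1 on log2(TPM + 1) and log2(TPM + 0.1). 1 gene of the pathway list is counted but not reported here. Plots used matplotlib 3.10.9.

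Same-numbered rats are different animals. The deviations from the group means of same-numbered rats correlated at a mean of 0.0336 for IS and IC, -0.282 for IS-HA and IS, and -0.158 for IS-HA and IC, so the block was kept as an alternative.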

Additional observations from a re-analysis of the deposited data

How the results depend on the processing

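All 7 complement genes passed the threshold against Normal in every alternative run. In IS against IC the number of complement genes past the threshold was 1 with the DESeq2 Wald test. It was also 1 with an unadjusted p and the fold cutoff, and 0 to 1 with 1 rat left out. For the pathway list it was 2 with DESeq2, 5 with an unadjusted p and the fold cutoff, and 0 to 2 with 1 rat left out. In IS-HA against IS the pathway count was 3 with an unadjusted p and the fold cutoff, and 0 to 1 with 1 rat left out. The pathway count in IC against Normal ran from 10 to 19 with 1 rat left out, with 10 without Normal replicate 3. Differences near 0 changed sign with 1 rat left out: IS-HA against IS for C1qb (-0.60 to 0.11), C1qc (-0.51 to 0.001) and Serping1 (-0.11 to 0.12), IS against IC for Cfb (-0.05 to 0.47) and IS-HA against IC for Cfb (-0.45 to 0.06). Serping1 in IS-HA against IS was -0.004 with DESeq2's size factors, -0.01 with its Wald test and -0.10 with the replicate block. With the replicate block edgeR called 0 complement genes between hemorrhage groups and 7 in IS-HA against Normal, and no block could be fitted for IC or IS against Normal, which share 1 number. Library size alone moved the median of all genes by 0.127 to 0.140 against Normal and left every call of the 7 genes unchanged. Without the smallest library, IS-HA replicate 2, edgeR called 964 genes in IS against IC and 481 in IS-HA against IS. The cause was not tested. Depth limits the lowest genes, with 3 counts at up to 0.473 CPM.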
